A study of Mus musculus with 9 samples.

Results

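The globin genes and the transcribed elements around them were followed through erythroid maturation in culture by precision nuclear run-on sequencing (PRO-seq), which labels the nascent RNA of engaged RNA polymerase and so reads transcription itself, not the stored message. The members were chosen by gene symbol. They are 8 of the 24391 rows of a table of reads over gene bodies, namely the adult beta genes Hbb-b1, Hbb-b2, Hbb-bs and Hbb-bt, the embryonic beta genes Hbb-y and Hbb-bh1, and the theta genes Hbq1a and Hbq1b, together with 12 of the 42114 entries of a table of dREG peaks whose gene columns name one of these or the adult alpha genes Hba-a1 and Hba-a2. dREG finds places of transcription initiation in run-on data. The 12 entries, called elements here, come from 8 peaks, since 4 of these peaks are listed as 2 single-strand entries each.

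All libraries came from 2 related mouse lines. Of the G1E-ER4 libraries, 3 were made without estradiol (0 h), 2 after 13 h in 100 nM estradiol and 2 after 24 h, and 2 further libraries were of G1E, without estradiol. G1E is an immature erythroid line without working GATA1, and G1E-ER4 is labelled as G1E that expresses GATA1-ER, a fusion that estradiol switches on. Every culture also held epoetin and medium conditioned with kit ligand. Each group is thus a state of 1 cell line under strong growth factors, and nothing in the labels ties a replicate to a culture of its own, so the p-values below measure spread between libraries that may be technical.

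A haemoglobin molecule pairs alpha-like with beta-like chains, and the genes of each kind lie in a cluster on its own chromosome. In the mouse, Hbb-y and Hbb-bh1 serve the primitive red cells of the embryo, while Hbb-b1 (beta major) and Hbb-b2 (beta minor) serve definitive red cells. Hbb-bs and Hbb-bt name the adult pair of the single haplotype, and Hba-a1 and Hba-a2 are the adult alpha genes. The theta genes Hbq1a and Hbq1b lie in the alpha cluster and are not known to add to haemoglobin. Each cluster depends on distant enhancers, the locus control region upstream of Hbb-y in the beta cluster and elements upstream of the alpha genes that lie within Nprl3, and GATA1 with its partners acts at both.

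The 250 bases before the listed start are printed for an adult beta major row, an adult beta minor row, an embryonic beta gene, an adult alpha gene and a theta gene. They set the motifs of genes whose gene-body rows rose (Hbb-bs, Hbb-bt and Hbq1b) beside those of Hbb-y, whose row stayed near 0. Hba-a1 belongs to neither side, since its gene-body row held 0 reads in every library. The sequences were taken from RefSeq in build GRCm38.p6, which is not the build of the read tables. RefSeq's table gave a start for 5 of the 8 member symbols, and Hbb-b1, Hbb-b2 and Hbb-bh1 are only named. Hbb-bs lies at chr7:103827929-103828178, Hbb-bt at chr7:103813924-103814173 and Hbb-y at chr7:103853208-103853457, each read from the minus strand. Hba-a1 lies at chr11:32283422-32283671 and Hbq1b at chr11:32286714-32286963, both on the plus strand. Capitals mark matches on either strand to AGATAA or TGATAA, which are forms of the GATA1 site, to CACCC, which KLF1 binds, to CCAAT, to TGANTCA, which NF-E2 binds, and to the E-box CAGNTG.
Hbb-bs: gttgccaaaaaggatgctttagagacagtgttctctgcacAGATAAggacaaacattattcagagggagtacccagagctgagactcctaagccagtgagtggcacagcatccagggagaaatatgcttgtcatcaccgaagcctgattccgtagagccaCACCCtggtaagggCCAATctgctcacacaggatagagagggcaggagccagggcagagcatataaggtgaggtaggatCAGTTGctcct
Hbb-bt: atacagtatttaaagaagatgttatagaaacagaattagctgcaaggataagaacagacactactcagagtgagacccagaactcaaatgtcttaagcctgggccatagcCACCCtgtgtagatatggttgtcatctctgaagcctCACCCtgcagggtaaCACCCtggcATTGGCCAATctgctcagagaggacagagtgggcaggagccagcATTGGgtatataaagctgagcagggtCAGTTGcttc
Hbb-y: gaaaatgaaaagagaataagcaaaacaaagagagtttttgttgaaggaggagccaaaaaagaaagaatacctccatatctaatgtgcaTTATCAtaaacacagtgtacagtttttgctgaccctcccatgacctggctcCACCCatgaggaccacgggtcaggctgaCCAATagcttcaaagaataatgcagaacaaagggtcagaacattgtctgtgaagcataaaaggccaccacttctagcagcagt
Hba-a1: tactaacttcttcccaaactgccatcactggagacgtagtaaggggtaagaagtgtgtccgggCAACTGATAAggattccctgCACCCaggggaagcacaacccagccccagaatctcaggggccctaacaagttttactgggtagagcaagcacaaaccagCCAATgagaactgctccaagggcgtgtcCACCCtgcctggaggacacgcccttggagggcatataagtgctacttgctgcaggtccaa
Hbq1b: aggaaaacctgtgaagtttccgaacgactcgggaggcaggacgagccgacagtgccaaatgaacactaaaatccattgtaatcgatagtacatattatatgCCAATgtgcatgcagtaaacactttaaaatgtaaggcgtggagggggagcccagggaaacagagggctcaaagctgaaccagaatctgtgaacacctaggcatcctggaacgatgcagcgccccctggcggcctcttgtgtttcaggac

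CACCC and CCAAT both occurred in the 4 upstream sequences of Hbb-bs, Hbb-bt, Hbb-y and Hba-a1. Each held a CCAAT between 75 and 88 bases before the start, and Hbb-bt held another at 36 bases, on the other strand. Across 32851 promoters searched over the same length, 52.0% held CACCC and 33.8% held CCAAT. A match to AGATAA, held by 9.99% of promoters, was found 210 bases before the start of Hbb-bs. TGATAA, held by 7.94%, was found at 162 bases in Hbb-y, on the other strand, and at 183 bases in Hba-a1. CAGNTG, held by 44.8%, lay 11 bases before the start in Hbb-bs, 10 bases in Hbb-bt and, on the other strand, 187 bases in Hba-a1, where it overlaps TGATAA. Hbb-bt held 3 copies of CACCC and Hba-a1 held 2. The Hbq1b sequence held none of these motifs but a CCAAT 149 bases before the start. TGANTCA, held by 6.75% of promoters, matched in none of the 5. Some of these genes are near copies in this region. Hbq1a and Hbq1b were identical at 239 of 250 bases before the start, and Hba-a1 and Hba-a2 at 297 of 297 bases once shifted by 3 bases. Such likeness does not tell whether gene-body reads can be separated. The Hbq1a and Hbq1b rows were equal in 0 of 9 libraries and differed by up to 156 reads.

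The libraries held between 37830789 and 139945759 gene-body reads and between 15394427 and 59952454 element reads. G1E replicate 2 had the lowest total in both tables, and the G1E libraries differed from each other at several globin rows, so values without each are given where they matter. Gata1 gene-body reads, which cannot be assigned to the disrupted gene or to the fusion, averaged 215 ± 37.4 CPM at 0 h (SD, n = 3), 247 ± 46.4 at 13 h, 301 ± 0.195 at 24 h and 189 ± 34.8 in G1E (n = 2 each). CPM here is the read count scaled to a common library size by TMM. None of the 8 red cell markers checked was at 0 in any group, and their summed level was between 780 and 847 CPM at 0 h, 1617 and 1685 at 13 h, 2810 and 3413 at 24 h, and 941 and 1231 in G1E.

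The adult beta genes rose strongly. Hbb-b1 had 2, 0 and 13 gene-body reads in the 0 h libraries, 64 and 38 at 13 h, 350 and 815 at 24 h, and 0 in both G1E libraries. The 13 h and 24 h libraries did not overlap with the 0 h libraries or with each other, and 0 h replicate 3 held most of the 0 h reads. On the log2 scale the change was 3.80 ± 0.78 at 13 h against 0 h (SE, adjusted p = 0.00429) and 7.30 ± 0.80 at 24 h against 0 h (adjusted p = 5.28e-05), both by the quasi-likelihood test of edgeR, adjusted by Benjamini-Hochberg over all 13825 genes tested, as for all gene tests here. The difference at 24 h against 13 h was 3.50 ± 0.75 (adjusted p = 0.0116). With a block by the leading digits of the numbers in the sample titles, where no block held both 13 h and 24 h libraries, it was 0.76 and did not pass (adjusted p = 0.854). Without 0 h replicate 3 the changes against 0 h were larger, 5.51 at 13 h and 9.01 at 24 h.

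Hbb-b2 had 8, 12 and 17 reads at 0 h, 335 and 213 at 13 h, 682 and 1066 at 24 h, and 49 and 1 in G1E. Here too the 3 times did not overlap, while G1E replicate 1 lay above every 0 h library and G1E replicate 2 below them. Hbb-b2 rose by 4.81 ± 0.67 at 13 h against 0 h (adjusted p = 0.000386) and by 6.48 ± 0.69 at 24 h against 0 h (adjusted p = 2.80e-05). The 24 h libraries stood 1.67 ± 0.64 over the 13 h libraries, which did not pass the test (adjusted p = 0.0839).

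Hbb-bs and Hbb-bt add no separate measurement. Hbb-bt had the same reads as Hbb-b2 in 9 of 9 libraries, and Hbb-bs had the same reads as Hbb-b1 in 7 of 9, with a largest difference of 9 reads. The 4 adult rows therefore stand for 2 loci. Their sum counts nearly every read in both copies, so its SE and p-values rest on doubled counts. Summed into 1 row, adult beta rose by 4.65 ± 0.66 at 13 h against 0 h (adjusted p = 0.000453), by 6.80 ± 0.71 at 24 h against 0 h (adjusted p = 2.35e-05) and by 2.15 ± 0.67 at 24 h against 13 h (adjusted p = 0.0416), a comparison that was not refitted with the blocks for this row.

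The gene-body rows of the theta genes moved the same way. In GRCm38.p6, Hba-a1 lies before Hbq1b and Hba-a2 before Hbq1a, all on the plus strand. Whether reads in the theta rows come in part from polymerase that ran on from the alpha genes was not tested. Hbq1a had 3, 0 and 3 reads at 0 h, 27 and 39 at 13 h, 128 and 156 at 24 h, and 9 and 0 in G1E. Hbq1b had 5, 21 and 39 reads at 0 h, 44 and 195 at 13 h, 264 and 306 at 24 h, and 90 and 11 in G1E. The times did not overlap in reads in either gene, and the G1E libraries spanned the 0 h range in Hbq1a.

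Hbq1a rose by 4.28 ± 0.80 at 13 h against 0 h (adjusted p = 0.00204), by 6.42 ± 0.78 at 24 h against 0 h (adjusted p = 6.10e-05) and by 2.15 ± 0.68 at 24 h against 13 h (adjusted p = 0.0456). The last of these calls was lost with the replicate block (adjusted p = 0.0789), with the block by title number (adjusted p = 0.504) and with total counts (adjusted p = 0.0698). It was also lost without 0 h replicate 3 (adjusted p = 0.0670). Leaving out any 13 h or 24 h library lost it too, with changes of 2.01 and 2.32 without 13 h replicates 1 and 2. Without 24 h replicates 1 and 2 they were 2.22 and 2.05. Hbq1b rose by 2.81 ± 0.71 at 13 h against 0 h (adjusted p = 0.0102) and by 4.15 ± 0.72 at 24 h against 0 h (adjusted p = 0.000671), while its difference of 1.35 ± 0.74 at 24 h against 13 h did not pass (adjusted p = 0.214). The Hbq1b call at 13 h rests on replicate 2, without which the adjusted p was 0.151.

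**Figure D1:**
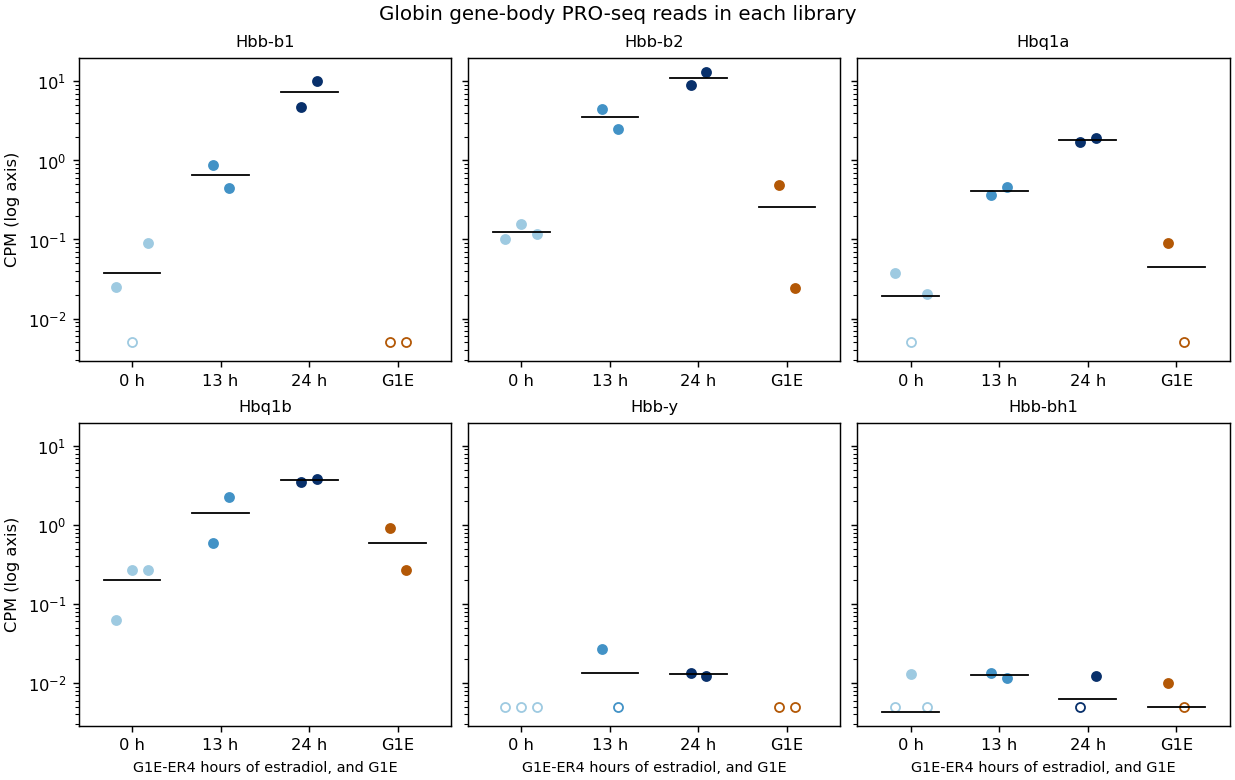
Gene-body reads of 6 globin genes in CPM on a log axis, with 1 point per library, for G1E-ER4 at 0 h, 13 h and 24 h of estradiol and for G1E. Black lines are group means and open points at the foot of a panel are libraries with 0 reads. Hbb-b1, Hbb-b2, Hbq1a and Hbq1b climb over the 3 times, while Hbb-y and Hbb-bh1 stay near 0.

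The gene-body rows of the embryonic beta genes held almost no reads. Hbb-y had 0 reads in the 3 libraries at 0 h, 2 and 0 at 13 h, 1 and 1 at 24 h, and 0 in both G1E libraries. The 0 reads at 0 h allow up to 0.00992 CPM over the group, and those in G1E up to 0.0212 CPM, both taken as 3 reads. These bounds hold for the counted region only, whose limits are not given. Globin gene-body rows differ in what they capture. At 24 h the beta major peak held 160 and 90.8 reads per Hbb-b1 gene-body read. The beta minor peak, on its minus strand, held 5.28 and 3.32 per Hbb-b2 read. Hbb-bh1 had 0, 1 and 0 reads at 0 h, 1 and 1 at 13 h, 0 and 1 at 24 h, and 1 and 0 in G1E. Neither row passed the filter on low counts, so neither was tested in the main fit.

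As a share of the reads over all 6 beta rows, embryonic reads were 0%, 4% and 0% at 0 h, 0.375% and 0.199% at 13 h, 0.0484% and 0.0533% at 24 h, and 1.01% and 0% in G1E. Each adult read is counted in both of its copies there, so Hbb-bs and Hbb-bt were left out for the intervals. The share sets rows of unlike capture together, so it is not a ratio of embryonic to adult transcription. The 24 h shares then rested on 1 of 1033 and 2 of 1883 reads, which is 0.0968% and 0.106%, with exact 95% binomial upper bounds of 0.538% and 0.383% that cover counting error only. At 0 h they rested on 10, 13 and 30 reads and the upper bounds were 30.8%, 36.0% and 11.6%, so the share before estradiol was not resolved at this depth. The groups at 24 h and 0 h overlapped (exact two-sided permutation test of the shares over all 6 rows, p = 1, where the smallest p possible is 0.1).

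Of the 8 member genes, 6 passed the filter on low counts, and 6 of these 6 rose at 13 h against 0 h, where 20.1% of all tested genes rose and 20.9% fell. At 24 h against 0 h, 6 of 6 rose, where 29% of all tested genes rose and 30.7% fell. Hbb-b1, Hbb-bs and Hbq1a, 3 of 6, rose at 24 h against 13 h, where 11.7% of all rose and 12.5% fell, but 0 passed with the block by title number, without 13 h replicate 2 or without 24 h replicate 2. The median change of the 6 was 4.04 at 13 h and 6.48 at 24 h against 0 h, beside -0.02 and -0.07 over all genes tested. A row with almost no reads at 0 h passes the filter only through the times at which it is high, so these counts and medians describe the rows and support nothing beyond each row's own test. With the adult rows summed, 3 of 3 rows rose at each time against 0 h.

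The member genes ranked high among the changes of all genes at 24 h against 0 h. From the largest increase down, Hbb-b1 was rank 15, Hbb-b2 rank 26, Hbq1a rank 28 and Hbq1b rank 118 of 13825. At 13 h against 0 h the order was different, with Hbb-b2 at rank 56, Hbq1a at rank 81, Hbb-b1 at rank 125 and Hbq1b at rank 273.

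The adult alpha genes could not be followed over their gene bodies. Hba-a1 and Hba-a2 are listed at 0 reads in every library, and Hba-x, the embryonic alpha-like gene, had 2 and 3 reads at 24 h and 0 elsewhere. An alpha peak in the same libraries held up to 34459 reads, as given below. No source used here gives the bounds of the gene-body regions, and whether they or the near-identical copies account for the 0 reads was not tested.

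The peaks over the adult beta starts held more reads than the gene-body rows, by very different margins. At 24 h the beta major peak held 55895 and 74033 reads, against the 350 and 815 reads of the Hbb-b1 gene-body row. The beta minor peak held 3600 and 3538 on its minus strand, against 682 and 1066 for Hbb-b2. The starts listed for Hbb-bs (110976442) and Hbb-bt (110962437) lie towards the upper ends of these peaks. Most of each peak thus lies downstream of the start, and its reads do not separate initiation from transcription along the gene. Positions are in build mm9, as deposited. The beta cluster runs along the minus strand of chromosome 7, with 1 peak at the beta minor start (chr7:110957950-110964001), which overlaps Hbb-b2 and Hbb-bt, and 1 at the beta major start (chr7:110972500-110977051), which lies over Hbb-b1 and Hbb-bs. Another lies in the embryonic interval downstream of Hbb-y (chr7:110992650-110993651). The other 3 beta peaks lie upstream of the Hbb-y start at position 111001721, in the interval where the locus control region is known to be. They are intergenic and called near (chr7:111007150-111010601, 5.43 to 8.88 kb upstream), middle (chr7:111013450-111014851, 11.7 to 13.1 kb) and far (chr7:111017750-111020251, 16.0 to 18.5 kb). On chromosome 11, the alpha cluster peak (chr11:32182700-32188251) overlaps Hba-a1, Hba-a2 and Hbq1b by the authors' annotation. The alpha intergenic peak (chr11:32191400-32191851) lies 4.64 to 5.09 kb before a start at position 32196489, which was taken as that of Hba-a2. The annotation lists that start for Hba-a1 and Hba-a2 together, and it lies beyond the end of the alpha cluster peak. In GRCm38.p6, Hba-a1 lies before Hbq1b and Hba-a2 after it, so the distance does not hold for Hba-a1. The authors classed the peaks at the 2 adult beta starts and the alpha cluster peak as start sites, and the other 5 as intergenic.

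Among the globin elements tested, the beta major peak had the largest change against 0 h at 13 h and at 24 h. It held 12.5, 26.1 and 24.9 CPM at 0 h, 696 and 291 at 13 h, 1494 and 2297 at 24 h, and 1.91 and 0.928 in G1E, over both strands. No 2 of the 4 groups overlapped, in the order G1E, 0 h, 13 h, 24 h from low to high. The change was 4.54 ± 0.43 at 13 h against 0 h (adjusted p = 1.92e-05), 6.48 ± 0.47 at 24 h against 0 h (adjusted p = 1.12e-06) and 1.94 ± 0.46 at 24 h against 13 h (adjusted p = 0.0197), with the element p-values adjusted over all 35158 elements tested. The call at 24 h against 13 h was lost with the block by title number (1.62, adjusted p = 0.411). Ranked by raw reads among 42114 elements, this peak was between 11797 and 7840 at 0 h, 57 and 317 at 13 h, 24 and 18 at 24 h, and 23089 and 25301 in G1E.

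At the beta minor start the 2 strands parted. The minus strand, on which the gene lies, held 3.34, 3.01 and 4.10 CPM at 0 h, 36.7 and 16.4 at 13 h, 96.3 and 110 at 24 h, and 34.4 and 10.1 in G1E. The times did not overlap, and the G1E libraries lay above the 0 h libraries. The change was 2.92 ± 0.46 at 13 h against 0 h (adjusted p = 0.000778), 4.88 ± 0.49 at 24 h against 0 h (adjusted p = 1.67e-05) and 1.95 ± 0.50 at 24 h against 13 h (adjusted p = 0.0295). The last call was lost with no filter (adjusted p = 0.0503) and without 0 h replicate 1 (adjusted p = 0.0520) or 0 h replicate 2 (adjusted p = 0.0538). It was also lost without 13 h replicate 2 (1.49), 24 h replicate 1 (2.05) or 24 h replicate 2 (1.94), fits that leave 1 library in a group. Without each library in turn that change ran between 1.49 and 2.65.

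The plus strand of the same peak held 3.42, 3.08 and 4.05 CPM at 0 h, 3.15 and 2.11 at 13 h, 2.46 and 3.04 at 24 h, and 10.1 and 4.31 in G1E. Its difference was -0.42 ± 0.39 at 13 h (adjusted p = 0.435) and -0.36 ± 0.39 at 24 h against 0 h (adjusted p = 0.464), neither past the test. As a share within each library, which library scaling does not enter, the minus strand made up 49.4%, 49.5% and 50.3% of the peak's reads at 0 h, 92.1% and 88.6% at 13 h, 97.5% and 97.3% at 24 h, and 77.3% and 70.0% in G1E. The 0 h libraries were balanced between strands and lay below every other library. The mean share was 47.7 percentage points higher at 24 h than at 0 h, with an exact two-sided permutation p of 0.1, the smallest possible with 2 against 3 libraries (adjusted p = 0.24 over 24 such tests of shares).

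The near and middle upstream elements rose at both times, with smaller fitted changes than the beta major start, and differences between elements were not tested. The near element held 8.32, 5.84 and 6.75 CPM at 0 h, 25.7 and 11.7 at 13 h, 28.0 and 31.6 at 24 h, and 16.9 and 9.08 in G1E. All treated libraries lay above the 0 h libraries, and 13 h replicate 2 lay within the G1E range. The change was 1.42 ± 0.34 at 13 h (adjusted p = 0.00547) and 2.10 ± 0.34 at 24 h against 0 h (adjusted p = 0.000194). The call at 13 h is lost without 13 h replicate 1 (adjusted p = 0.15).

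The middle element held 0.455, 0.528 and 0.794 CPM at 0 h, 5.55 and 3.02 at 13 h, 2.99 and 4.84 at 24 h, and 1.14 and 0.928 in G1E. The 13 h and 24 h libraries overlapped each other and lay above both other groups. The change was 2.83 ± 0.43 at 13 h (adjusted p = 0.000242) and 2.70 ± 0.43 at 24 h against 0 h (adjusted p = 0.000161). Between 24 h and 13 h it was -0.13 ± 0.45 and did not pass (adjusted p = 0.885).

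Neither strand of the far element passed the test at any time. Its plus strand held 0.455, 0.373 and 0.737 CPM at 0 h, 1.53 and 0.791 at 13 h, 0.535 and 1.86 at 24 h, and 0.762 and 0.464 in G1E. Its minus strand held 1.20, 1.02 and 1.15 CPM at 0 h, 1.73 and 0.791 at 13 h, 0.401 and 0.652 at 24 h, and 3.03 and 1.52 in G1E. The 24 h libraries were the lowest of all on the minus strand and spread widely on the plus strand.

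The difference at 24 h against 0 h was 1.17 ± 0.60 on the plus strand (adjusted p = 0.117) and -1.10 ± 0.53 on the minus strand (adjusted p = 0.0941). The minus-strand share of the far element's reads was 72.6%, 73.3% and 61.0% at 0 h, 53.1% and 50% at 13 h, 42.9% and 25.9% at 24 h, and 79.9% and 76.7% in G1E. The groups did not overlap, and the mean share differed by -34.6 percentage points at 24 h against 0 h (exact two-sided permutation p = 0.1, the smallest possible, adjusted p = 0.24).

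**Figure D2:**
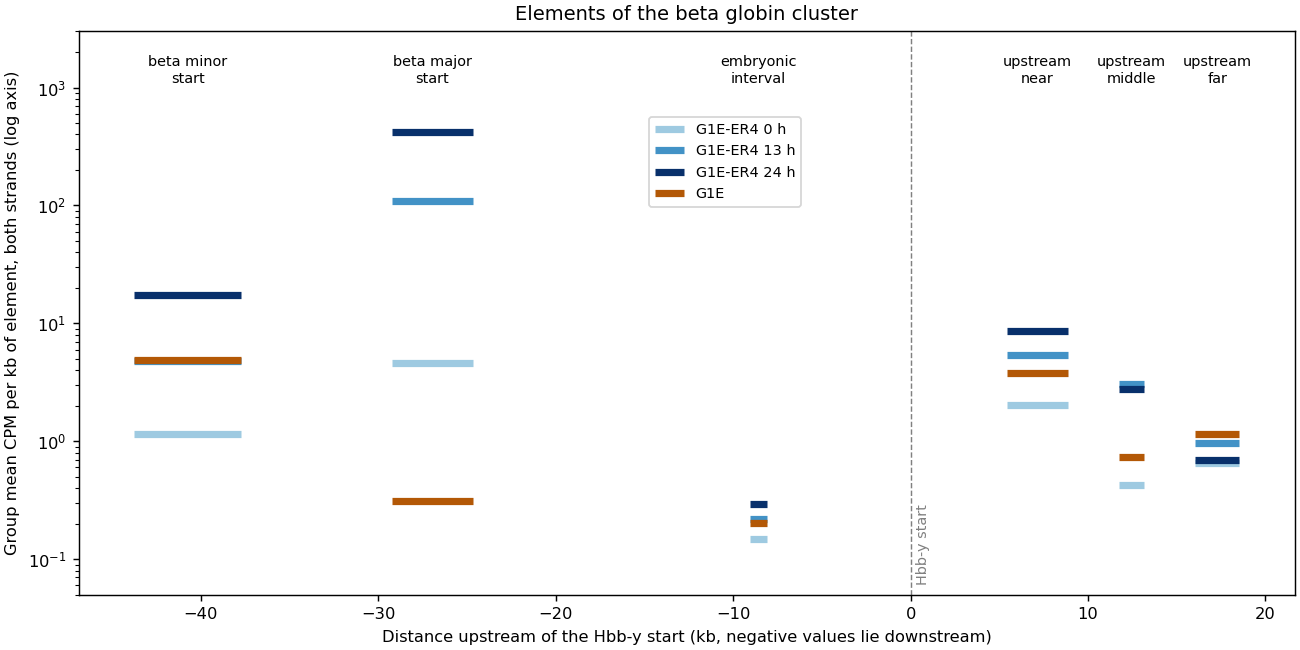
Group mean CPM per kb of each beta cluster peak, both strands together, on a log axis against distance from the Hbb-y start in kb, with 1 horizontal bar per group drawn over the width of the peak. The beta major start spans the widest range between groups and the embryonic interval stays low in all 4.

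Per kb of element, the beta major peak averaged 4.65 CPM at 0 h, 108 at 13 h, 417 at 24 h and 0.311 in G1E. The near upstream element averaged 2.02 CPM per kb at 0 h, 5.42 at 13 h, 8.64 at 24 h and 3.76 in G1E. The upstream element thus had the higher density of the pair in G1E, and the beta major start had it at 0 h, 13 h and 24 h. The 2 strands of the embryonic interval stayed between 0 and 11 reads in every library, did not pass the filter and were not tested in the main fit.

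The alpha cluster peak held 21.9, 38.7 and 28.4 CPM at 0 h, 201 and 262 at 13 h, 721 and 1069 at 24 h, and 172 and 60.5 in G1E. The times did not overlap, and G1E lay between the 0 h and 13 h libraries. The change was 2.96 ± 0.39 at 13 h against 0 h (adjusted p = 0.000169), 4.92 ± 0.41 at 24 h against 0 h (adjusted p = 3.10e-06) and 1.95 ± 0.43 at 24 h against 13 h (adjusted p = 0.0152). Without each library in turn the last change ran between 1.71 (without 24 h replicate 2) and 2.21, and its call depends on single libraries. By the authors' annotation the peak overlaps adult alpha genes and the theta gene Hbq1b, which its reads do not separate. The start taken as that of Hba-a2 lies beyond its end, as above.

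The alpha intergenic peak held 0.508, 0.684 and 0.700 CPM on its plus strand at 0 h, 2.51 and 1.97 at 13 h, 4.76 and 5.34 at 24 h, and 1.41 and 0.994 in G1E. No 2 groups overlapped, in the order 0 h, G1E, 13 h, 24 h. It rose by 1.82 ± 0.38 at 13 h against 0 h (adjusted p = 0.00241) and by 2.99 ± 0.38 at 24 h against 0 h (adjusted p = 2.58e-05), while 1.17 ± 0.41 at 24 h against 13 h did not pass (adjusted p = 0.0703). Its minus strand had 0 to 13 reads per library and was not tested in the main fit.

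**Figure D3:**
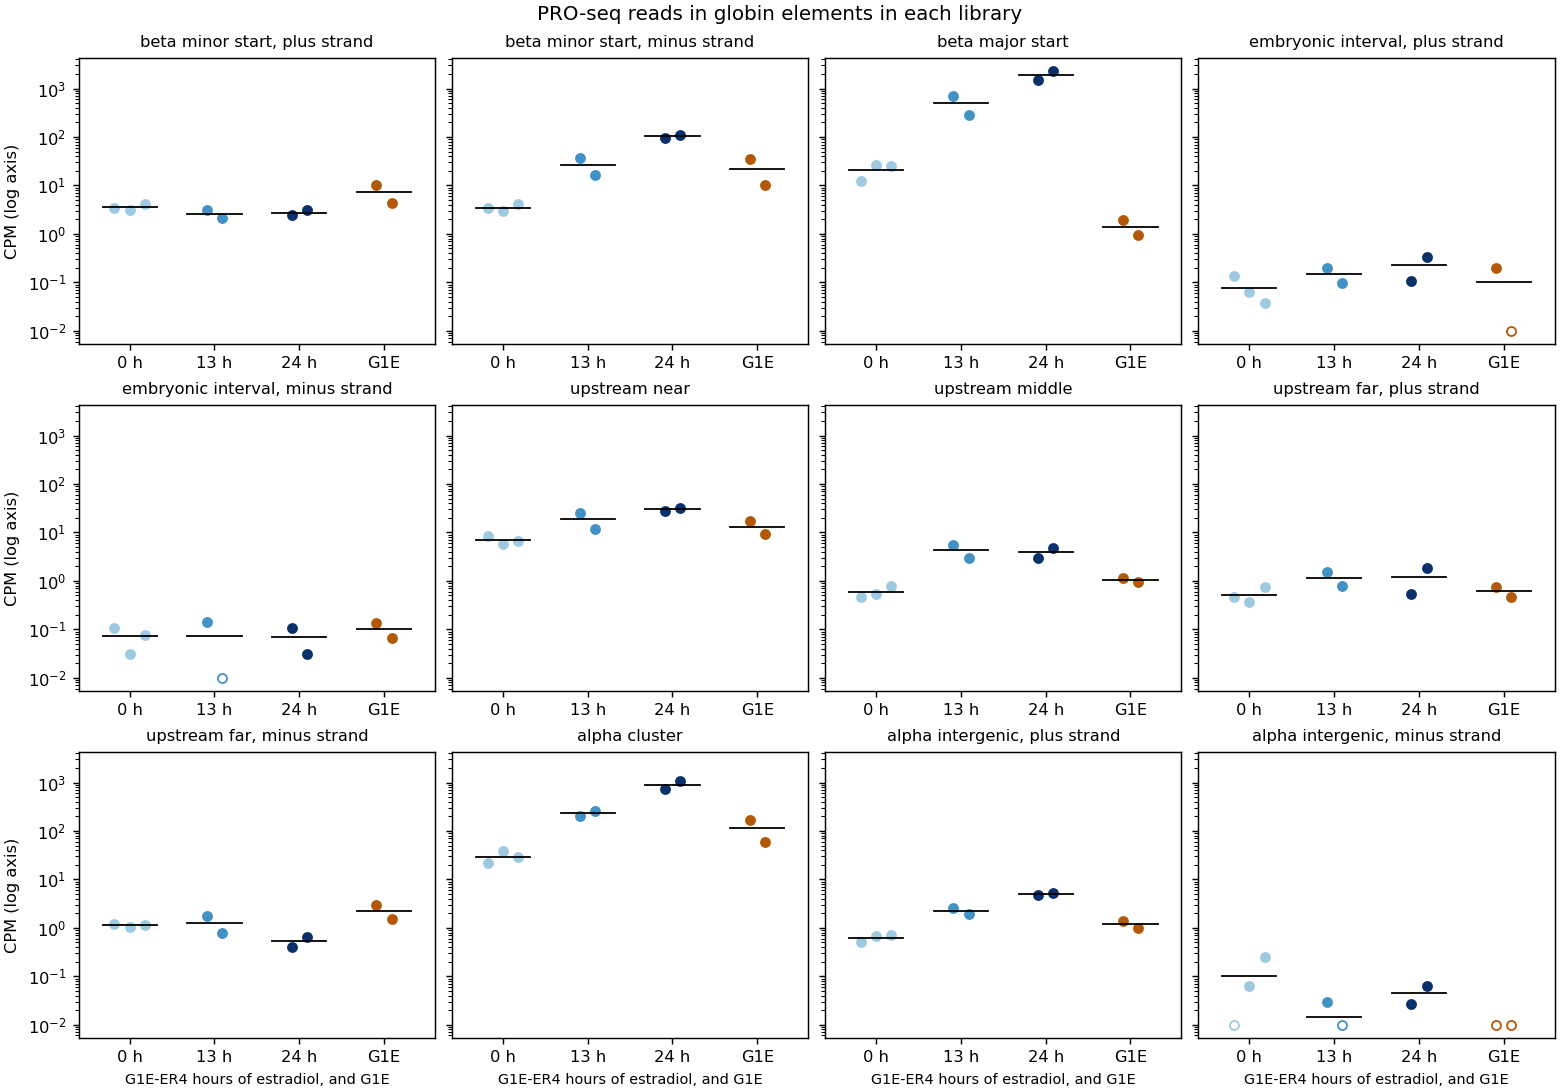
Reads in the 12 globin elements in CPM on a shared log axis, with 1 point per library, for G1E-ER4 at 0 h, 13 h and 24 h of estradiol and for G1E. Lines are group means and open points are libraries with 0 reads. The beta major start, the minus strand of the beta minor start and the alpha cluster climb over the 3 times, and G1E is lowest at the beta major start.

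Of the 12 elements, 9 passed the filter on low counts. At 13 h against 0 h, 6 of the 9 rose and 0 fell, where 15.2% of all elements tested rose and 18.6% fell. The count at 24 h against 0 h was also 6 that rose and 0 that fell, where 22.7% of all rose and 29.5% fell. The 6 were the beta major start, the minus strand of the beta minor start, the near and middle upstream elements, the alpha cluster and the plus strand of the alpha intergenic peak at both times. At 24 h against 13 h, 3 rose (both adult beta starts, the minor one on its minus strand, and the alpha cluster), and 0 fell, where 5.28% of all rose and 7.82% fell, and again 0 passed without 13 h replicate 2 or without 24 h replicate 2. The median of the 9 was 1.82 at 13 h and 2.70 at 24 h against 0 h, beside -0.13 and -0.18 over all elements. Both comparisons share the 0 h libraries.

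Together the 12 elements took 0.00604%, 0.00781% and 0.00635% of all element reads at 0 h, 0.105% and 0.0611% at 13 h, 0.231% and 0.319% at 24 h, and 0.0249% and 0.00870% in G1E. These shares use the raw totals and no fitted scaling. The 13 h and 24 h libraries lay above all others.

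**Figure D4:**
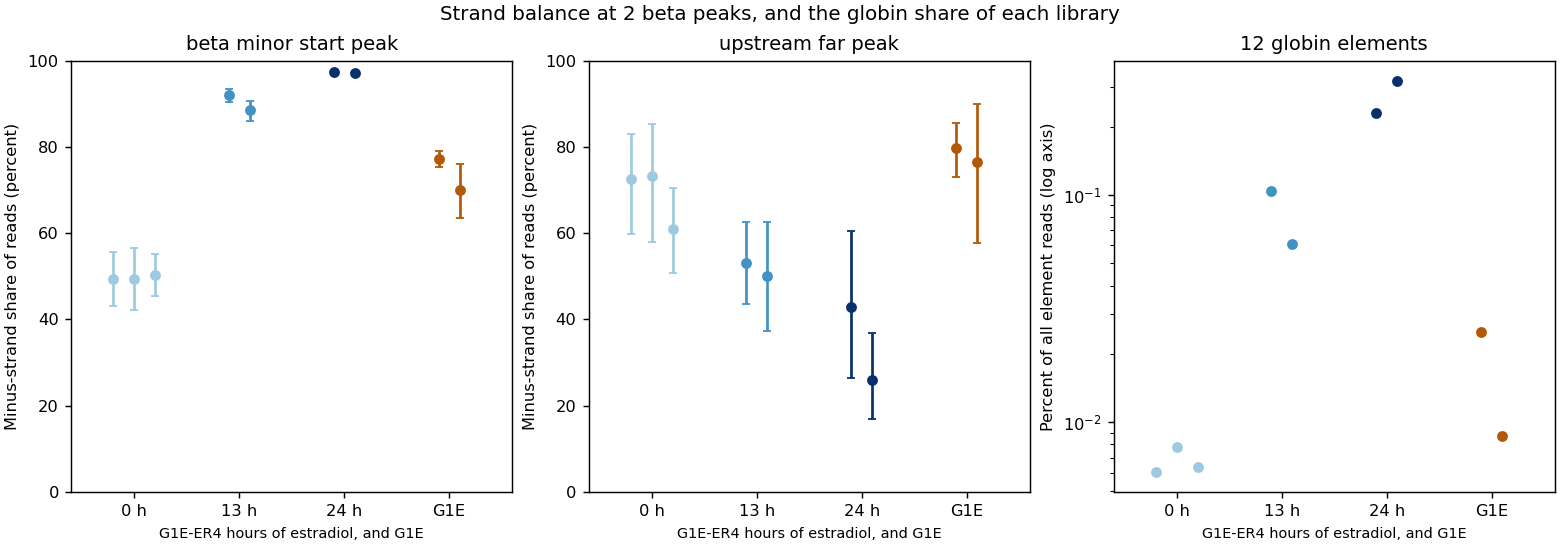
Minus-strand share of reads in percent at the beta minor start peak and the far upstream peak, with exact 95% binomial intervals, and the percent of all element reads held by the 12 globin elements on a log axis. Each point is 1 library of G1E-ER4 at 0 h, 13 h or 24 h of estradiol or of G1E. At the beta minor start the share goes up over time, and at the far upstream peak it goes down.

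Untreated G1E-ER4 was also set against G1E, the same line without GATA1-ER. Among genes, 0 of 6 passed the test in either direction in edgeR, where 7.88% of all genes tested were higher and 9.58% lower at 0 h. At an unadjusted p under 0.05 the count was 0, and DESeq2 called 0. Hbb-b1 had 2, 0 and 13 reads at 0 h and none in either G1E library, a difference that did not pass (adjusted p = 0.188) and rests mainly on 0 h replicate 3. Hbb-b2 differed by -1.25 ± 0.71 (adjusted p = 0.289), Hbq1a by -1.47 ± 0.99 (adjusted p = 0.376) and Hbq1b by -1.57 ± 0.72 (adjusted p = 0.183). The G1E libraries disagreed, and without G1E replicate 1 the Hbb-b2 and Hbq1a differences turned positive, to 2.29 and 3.81. Without G1E replicate 2, Hbb-b2 and its copy Hbb-bt, 2 of the 6 rows, were past the test and lower at 0 h (-1.98, adjusted p = 0.0347).

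Among elements, 1 was higher and 2 were lower in G1E-ER4 at 0 h than in G1E, where 7.18% of all elements were higher and 12.1% lower. The beta major start was higher at 0 h by 3.80 ± 0.52 (adjusted p = 0.000348), with 3 of 3 libraries at 0 h above both G1E libraries, but this call was lost with the block by title number (3.71, adjusted p = 0.057). The minus strand of the beta minor start was lower at 0 h (log2 fold change -2.68 ± 0.46, adjusted p = 0.00206). Without G1E replicate 1 this difference was -1.53. The alpha cluster was lower too (-1.98 ± 0.38, adjusted p = 0.00335), a call that is lost without G1E replicate 1 (-1.03, adjusted p = 0.0849). The other 6 tested elements did not pass, with differences between -1.05 and -0.26, but without G1E replicate 2 the near element and the plus strand of the beta minor start did, also lower at 0 h, which made 5 calls in all.

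The split between the 2 adult beta starts can be read within libraries. Of the reads in the 2 adult beta peaks, the beta major peak held 64.8%, 81.1% and 75.4% at 0 h, 94.6% and 94.0% at 13 h, 93.8% and 95.3% at 24 h, and 4.11% and 6.06% in G1E. The 0 h share was 68.7 percentage points above that in G1E, without overlap (exact two-sided permutation p = 0.1, the smallest possible, adjusted p = 0.24). The alpha cluster peak held 53.3%, 54.6% and 46.2% of the reads in these 3 peaks at 0 h, 21.5% and 45.9% at 13 h, 31.2% and 30.7% at 24 h, and 78.8% and 79.8% in G1E. The 13 h libraries differed widely from each other, and 24 h and 13 h overlapped, while 0 h lay below G1E in every library. These shares compare peaks of different width and are read only across libraries.

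**Figure D5:**
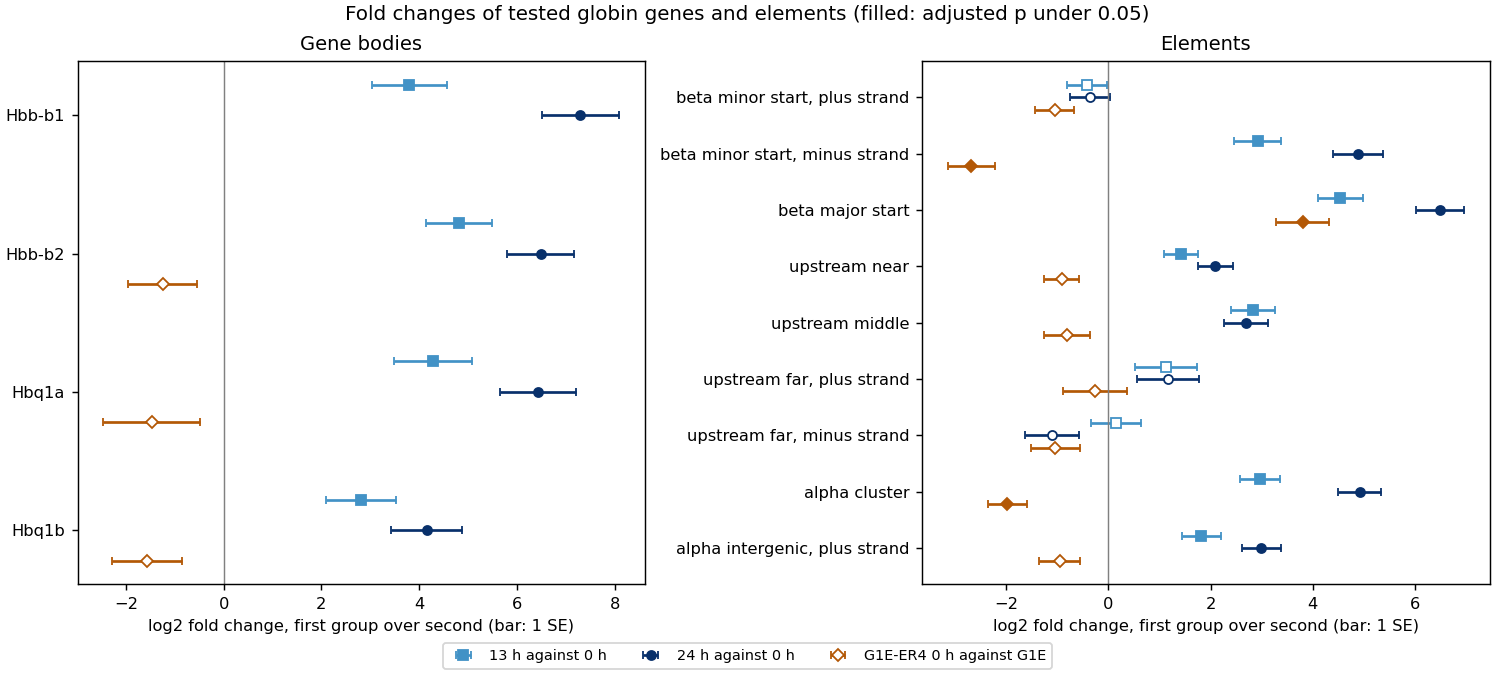
Log2 fold changes with 1 SE for 4 globin genes and the 9 tested elements, at 13 h and 24 h against 0 h and for G1E-ER4 at 0 h against G1E, with filled symbols where the adjusted p was under 0.05. Hbb-b1 has no point for the last comparison, since G1E held no Hbb-b1 reads. The beta major start lies right of 0 in all 3 comparisons, while the beta minor start on its minus strand and the alpha cluster lie right of 0 with estradiol and left of 0 for 0 h against G1E.

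Factors that act at the globin loci changed unevenly. Of 12 activators and partners, 5 rose and 2 fell at 13 h against 0 h, beside 20.1% and 20.9% of all genes tested, and 8 rose and 2 fell at 24 h, beside 29% and 30.7%. Gata1 rose by 0.49 ± 0.18 at 24 h (adjusted p = 0.0349), and Klf1, whose product binds CACCC sites, by 0.98 ± 0.20 (adjusted p = 0.00168). Zfpm1, the GATA1 cofactor FOG1, rose by 3.33 ± 0.36 (adjusted p = 2.78e-05). Of the proteins that bind as NF-E2 or at its sites, Nfe2 rose by 1.80 ± 0.24, Mafk by 1.99 ± 0.20 and Mafg by 1.21 ± 0.15. Bach1 rose most of the 12 at 24 h, by 4.13 ± 0.21 (adjusted p = 5.51e-07), although it encodes a haem-sensitive repressor that pairs with small Maf proteins. Ldb1, a looping cofactor, fell by 0.59 and Tcf3, which encodes an E-box protein, by 0.43 (-0.59 ± 0.16 and -0.43 ± 0.13), both named after their values were seen.

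Of 12 genes listed as repressors of embryonic globin, 11 were tested, 2 rose and 5 fell at 13 h, and 3 rose and 5 fell at 24 h against 0 h. Of all genes tested, 20.1% rose and 20.9% fell at 13 h, and 29% rose and 30.7% fell at 24 h. Bcl11a, which silences embryonic beta-like globin genes in the mouse, averaged 935 ± 155 CPM at 0 h (SD, n = 3), 233 ± 60.9 at 13 h, 151 ± 74.4 at 24 h and 563 ± 161 in G1E (n = 2 each), and it fell by 2.63 at 24 h against 0 h (-2.63 ± 0.34, adjusted p = 8.65e-05). Sox6, a partner of BCL11A, fell by 3.04 (-3.04 ± 0.17, adjusted p = 7.07e-07) and Myb, a factor of progenitor growth, fell by 4.82 (-4.82 ± 0.69, adjusted p = 0.000190). The corepressor gene Kdm1a (1.40 ± 0.11), Mbd2, whose product binds methylated DNA (1.10 ± 0.12), and the nuclear receptor gene Nr2c1 (1.29 ± 0.16) rose. Embryonic Hbb-y and Hbb-bh1 held at most 2 reads per library throughout, as above.

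Genes for haem supply and haemoglobin assembly rose as a group. Of 11 tested, 9 rose at 13 h and 11 at 24 h against 0 h, and 0 fell at either time, where 20.1% and 29% of all genes tested rose. Alas2, which encodes the erythroid enzyme that starts haem synthesis, averaged 0.903 ± 0.330 CPM at 0 h (SD, n = 3), 132 ± 56.5 at 13 h, 582 ± 166 at 24 h and 2.09 ± 1.66 in G1E (n = 2 each), a change of 9.34 ± 0.55 at 24 h against 0 h (adjusted p = 9.28e-07). Eif2ak1, the haem-regulated kinase that slows globin translation, rose by 3.42 ± 0.18, and Slc25a37, the mitochondrial iron importer, by 3.34 ± 0.15. Fech and Urod, later enzymes of haem synthesis, rose by 2.48 ± 0.22 and 2.25 ± 0.20. Ahsp, the alpha chain chaperone, was not analysed here.

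Genes beside the alpha cluster rose or did not pass the test, and those beside the beta cluster had almost no reads. Of 5 beside the alpha cluster, 4 were tested and 2 rose at both times against 0 h, where 20.1% of all genes tested rose at 13 h and 29% at 24 h. Nprl3, whose introns hold the alpha enhancers, rose by 0.60 ± 0.16 at 13 h (adjusted p = 0.0151) and by 1.24 ± 0.16 at 24 h (adjusted p = 0.000107), and Snrnp25 by 1.86 ± 0.36 at 24 h (adjusted p = 0.00145). Mpg (-0.35 ± 0.17, adjusted p = 0.092) and Rhbdf1 (-0.58 ± 0.71, adjusted p = 0.505) did not pass at 24 h. None of 6 olfactory receptor genes beside the beta cluster passed the filter.

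Markers of other lineages moved with the same groups. The summed level of 8 mast cell markers was between 37.0 and 85.1 CPM at 0 h, 2.22 and 2.35 at 13 h, 0.818 and 1.02 at 24 h, and 30.5 and 54.5 in G1E. Cpa3 made up most of it at 0 h and in G1E, with means of 53.5 and 41.0 CPM. Mcpt8 was at 0 in all 4 groups, Fcer1a also at 13 h and 24 h, Ms4a2 also at 24 h, and Tpsb2 and Tpsab1 also in G1E. That of 8 megakaryocyte markers was between 38.7 and 54.9 CPM at 0 h, 140 and 146 at 13 h, 92.7 and 150 at 24 h, and 60.6 and 67.2 in G1E, with none at 0 in any group. That of 7 granulocyte and monocyte markers stayed at or below 1.22 CPM. Their part in the globin results was not tested, and in such bulk libraries fewer cells of a type and less RNA per cell cannot be told apart.

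The 5 genes whose level was most like that of the summed adult beta rows across the 9 libraries were Chd8 (Pearson r = 0.995), Mon2 (0.993), Tm2d2 (0.992), Extl3 (0.992) and Jph2 (0.992), among 11525 genes with a mean of at least 50 reads. The points share the group structure and the depth of the libraries, so r is a description. Chd8, a chromatin remodeller, rose by 1.04 ± 0.14 at 24 h against 0 h and Jph2 by 2.22 ± 0.23. No likeness was computed for Hbb-y, which had 4 reads in all.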

How the data were processed

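The gene-body and dREG tables of 9 PRO-seq libraries were used, with the members and gene lists chosen with earlier results of these data known. Both hold raw read counts as deposited by the authors, for 24391 gene bodies and 42114 dREG elements. Reads were aligned with BWA to mm9, per the submitters' processing notes. No source used here gives the gene-body bounds, the counting tool or the use of strand, so near copies and overlapping genes are uncertain. A p-value and a percent position within a gene, deposited for each peak, were not used.

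Counts were fitted with edgeR 4.0.16 (limma 3.58.1) in R 4.3.3, with TMM scaling, the filter on low counts, a mean per group (4 in all) and robust quasi-likelihood testing on 5 residual degrees of freedom. The p-values were adjusted over 13825 genes or 35158 elements, at a threshold of 0.05. The SE is the log2 fold change over the square root of F. Gene-body totals of 37830789 to 139945759 and element totals of 15394427 to 59952454 reads limit the precision, and intervals cover counting error only. Shares were compared by exact permutation over libraries. The fit was tested on simulated data. Alternatives were total-count scaling, DESeq2 1.42.0, no filter, blocks by replicate and by title number, each library left out, adult beta rows summed and, for elements, gene-body scaling; leaving out Hbb-bs and Hbb-bt was added after seeing the data. Named were all members, up to 5 genes per list with the lowest adjusted p at 24 h against 0 h, Gata1, Klf1, Nfe2, Bcl11a, Sox6, Myb, Ahsp, Alas2 and Nprl3, and the 5 genes most like adult beta by Pearson r on log2(CPM + 0.1). Motifs were searched in 250 bases of RefSeq promoters of GRCm38.p6.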

Additional observations from a re-analysis of the deposited data

How the results depend on the processing

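At 13 h and at 24 h against 0 h, the count of member genes past the test was 6 under DESeq2, total-count scaling, no filter and both blocks. With the adult beta rows summed it was 3 of 3. The fit with no filter also held Hbb-y and Hbb-bh1, which were not among the 6. Without each library in turn it was 5 to 6 at 13 h and 6 at 24 h. The element counts at these times were 6 under each of those settings and under gene-body scaling, and between 5 and 7 without each library. The gene count of 3 at 24 h against 13 h became 5 with DESeq2 and 0 with the block by title number, and was between 0 and 5 without each library, with 0 without 13 h replicate 2 or 24 h replicate 2 and 5 without G1E replicate 1 or 2. The element count of 3 there was between 0 and 3, with 0 without 13 h replicate 2 or 24 h replicate 2. For G1E-ER4 at 0 h against G1E, the gene count of 0 was between 0 and 2 and the element count of 3 between 2 and 5 without each library, with 2 and 5 without G1E replicate 2. The cause was not tested, beyond the fewer libraries of these fits.

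Replicate numbers paired the libraries only in part. Over genes, deviations of same-numbered libraries correlated at 0.515 and 0.500 between 13 h and 0 h, and between -0.185 and 0.168 in the other pairs of groups. With the replicate block, the gene counts were 6 at 13 h and 6 at 24 h against 0 h, 2 at 24 h against 13 h (Hbq1a, adjusted p = 0.0789) and 0 at 0 h against G1E, and the element counts were 6, 6, 3 and 3.

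Of 900 values of single members under all alternatives, 836 kept direction and side of the threshold, 30 lost the threshold, 16 gained it and 18 changed sign, none of them past the test in the fit reported. For 0 h against G1E, values without each library ran between -1.98 and 2.29 for Hbb-b2 and Hbb-bt, -2.11 and 3.81 for Hbq1a, and -0.60 and 0.18 for the plus strand of the far element, the upper ends without G1E replicate 1. The far minus strand ran between -0.50 (without 13 h replicate 1) and 0.63 at 13 h against 0 h, and the middle element between -0.50 and 0.37 (without 13 h replicate 1, 0.18 without 24 h replicate 1) at 24 h against 13 h. In the same comparison, the beta minor plus strand became -0.11 with total counts, -0.23 with the title-number block and -0.032 with gene-body scaling, and the far plus strand became -0.15, -0.75 and -0.12 in that order. Without each library these ran between -0.20 and 0.38 (below 0 without 13 h or 24 h replicate 2) and between -1.03 and 0.69 (below 0 without these or 0 h replicate 3). The beta major start at 0 h against G1E missed the threshold with the title-number block (3.71, adjusted p = 0.057). Total-count scaling moved the median of all genes at 24 h against 0 h to -0.45, against -0.07 with TMM. There, 2614 genes were higher and 5863 lower, against 4014 and 4246 with TMM. Low reads limit Hbb-y, Hbb-bh1 and the rows near 0 at 0 h.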

Other observations

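Peaks within 100 kb of the globin peaks were looked at after the results above were known, and are given as values. Near the alpha cluster, the peak at the start of Nprl3 rose by 0.82 ± 0.20 at 13 h (adjusted p = 0.00548), by 1.57 ± 0.20 at 24 h against 0 h (adjusted p = 2.11e-05) and by 0.76 ± 0.22 at 24 h against 13 h (adjusted p = 0.0364). The plus strand of the peak at the start of Snrnp25 rose by 1.08 ± 0.33 at 13 h (adjusted p = 0.0214) and by 1.74 ± 0.33 at 24 h against 0 h (adjusted p = 0.000663).

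The peak at the start of Il9r, which encodes a cytokine receptor, had another time course. It rose by 2.41 ± 0.39 at 13 h against 0 h (adjusted p = 0.000721), fell by 1.72 at 24 h against 13 h (-1.72 ± 0.44, adjusted p = 0.0265) and stood 0.69 ± 0.39 over 0 h at 24 h, which did not pass (adjusted p = 0.158). It was higher in G1E-ER4 at 0 h than in G1E by 1.32 ± 0.42 (adjusted p = 0.0463). The peak at the start of Mpg did not pass the test in any of the 4 comparisons, nor did the tested strands of the peaks on either side of the beta cluster.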
